A study of Mus musculus with 24 samples.

Results

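The genes described here encode proteins of interstrand crosslink repair and homologous recombination. They are the 33 genes of a given list, found by their symbols in the deposited gene tables, and 32 of the 33 had an entry among 25239 gene entries, 24357 of which carry a symbol. The measurement was XR-seq, which sequences the short oligomers, about 26 to 27 nucleotides long, that nucleotide excision repair cuts out around a DNA lesion. Reads therefore show where damage in a gene's own DNA was excised, and they measure neither its RNA nor the activity of its protein. The libraries came from kidney and liver of wild-type C57BL/6J female mice aged 6 months and kept in a cycle of 12 h light and 12 h dark. All mice had received cisplatin at 10 mg/kg by intraperitoneal injection, and tissues were taken 2 h later, so there is no undamaged control. Each tissue was sampled at 6 zeitgeber times (ZT0, ZT4, ZT8, ZT12, ZT16 and ZT20, in hours after lights on), with 2 libraries a time, which gives 12 kidney and 12 liver libraries. Nothing in the labels ties the 2 libraries of a time to different animals, so the p-values rest on a spread between libraries that may be technical. The extraction protocol names antibodies to 2 other kinds of lesion at the last capture step, while the design text names cisplatin. In bulk tissue, fewer cells of a type and less repair per cell cannot be told apart.

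Cisplatin links bases within a DNA strand and, less often, across both strands. Lesions within a strand are removed by excision repair, which in transcribed genes is guided to the template strand by stalled RNA polymerase, and this is why reads are split into the transcribed strand (TS) and the non-transcribed strand (NTS). Crosslinks between strands are handled by the Fanconi anaemia pathway: a core complex of FANC proteins marks the FANCD2 and FANCI pair with ubiquitin, nucleases unhook the crosslink, and BRCA1, BRCA2 and the proteins that work with them restore the broken strand by recombination. Many of these genes are known for higher expression in dividing cells, and adult kidney and liver divide little.

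Kidney libraries held 8718055 to 33716763 reads and liver libraries 12917058 to 28244795. The TS took 83.6% to 88.0% of the reads on genes in kidney and 86.1% to 89.0% in liver. Markers fitted the labelled tissues: the summed TS density of 12 kidney tubule genes was 14.1 to 16.6 in kidney libraries, against 0.50 to 1.21 in liver libraries, in reads per kilobase scaled to the size of the library (RPKM). The sum of 12 hepatocyte genes was 5.33 to 7.16 RPKM in kidney and 19.3 to 31.3 RPKM in liver, and no marker was at 0. Sums for 8 endothelial genes were 2.04 to 3.38 RPKM in kidney and 1.88 to 5.51 RPKM in liver, those for 8 immune genes 4.82 to 7.27 and 4.23 to 5.85, those for 6 podocyte and mesenchymal genes 1.06 to 2.14 and 0.948 to 2.01, and those for 30 proliferation genes 17.5 to 20.0 and 18.1 to 22.2. The part of other cell types in the results below was not tested.

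Every one of the 32 genes carried excision repair reads on both strands in both tissues, over a wide range of densities. The median TS density of the 32 genes was 0.468 RPKM in kidney, with 15 of them above the median of all entries with a symbol, 0.513 RPKM. In liver their median was 0.495 RPKM, and 19 exceeded the median of all entries, 0.407 RPKM. NTS densities were lower, with medians of 0.125 RPKM in kidney and 0.109 RPKM in liver, beside 0.0974 and 0.0708 RPKM for all entries. The remaining gene, Fancd2, had no entry under its symbol, and an entry without a symbol that covers its place is described in the closing section. Densities are per length, for genes whose spans run over 1.7 to 517.4 kb, with a median of 32.6 kb. They are not corrected for other differences between genes.

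Among the FA core complex genes, the ubiquitin ligase assembly of the pathway, Fance and Fancf had the densest TS repair. Fance averaged 4.28 ± 0.276 RPKM in kidney and 3.78 ± 0.218 RPKM in liver (SD, n = 12 each). Fancf, a gene of 1.7 kb, averaged 3.85 ± 0.639 RPKM in kidney and 4.23 ± 0.529 RPKM in liver. Fancl, whose protein is the ligase subunit, averaged 0.321 RPKM in kidney and 0.503 RPKM in liver, and Fancm, a DNA translocase that anchors the complex on DNA, 0.683 and 0.741 RPKM. Of the later steps, Fanci, the partner of FANCD2, had one of the lowest TS densities, 0.0463 ± 0.00838 RPKM in kidney and 0.0375 ± 0.00980 RPKM in liver. Ube2t, the enzyme that passes ubiquitin to the pair, averaged 0.321 RPKM in kidney and 0.243 RPKM in liver.

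The structure-specific nuclease genes were among the most repaired. Mus81 averaged 3.96 ± 0.264 RPKM in kidney and 4.14 ± 0.261 RPKM in liver. Slx4, the scaffold that holds several nucleases, averaged 3.02 ± 0.175 and 2.59 ± 0.237 RPKM, and Fan1, a nuclease recruited by ubiquitylated FANCD2, 2.33 ± 0.102 and 2.47 ± 0.157 RPKM. Eme1, the partner of MUS81, had only 0.155 ± 0.0420 RPKM in kidney and 0.103 ± 0.0266 RPKM in liver, so the genes of this nuclease pair differed in density by far more than the spread of either.

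The BRCA group genes all lay below the median TS density of entries with a symbol in both tissues, though Palb2 in liver only just, at percentile 49.4. Brca1 averaged 0.0918 RPKM in kidney and 0.199 RPKM in liver, and its ligase partner Bard1 0.0973 and 0.0766 RPKM. Brca2, whose protein acts in strand exchange, averaged 0.244 and 0.321 RPKM, Palb2, which bridges BRCA1 and BRCA2, 0.301 and 0.379 RPKM, and the helicase gene Brip1 0.121 and 0.209 RPKM. Among the recombination mediators Rad51b, Rad51c, Rad51d, Xrcc2 and Xrcc3 the densities ran from 0.117 RPKM for Rad51b in kidney to 2.18 RPKM for Rad51d in liver. Rad52, an annealing protein, averaged 2.50 ± 0.101 RPKM in kidney and 2.47 ± 0.0962 RPKM in liver. Of the genes that process broken ends, Nbn, of the MRN complex, was highest (1.27 ± 0.102 RPKM in kidney and 1.46 ± 0.115 RPKM in liver), and Exo1, an exonuclease gene, lowest (0.0461 ± 0.0108 and 0.0606 ± 0.0134 RPKM).

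**Figure D1:**
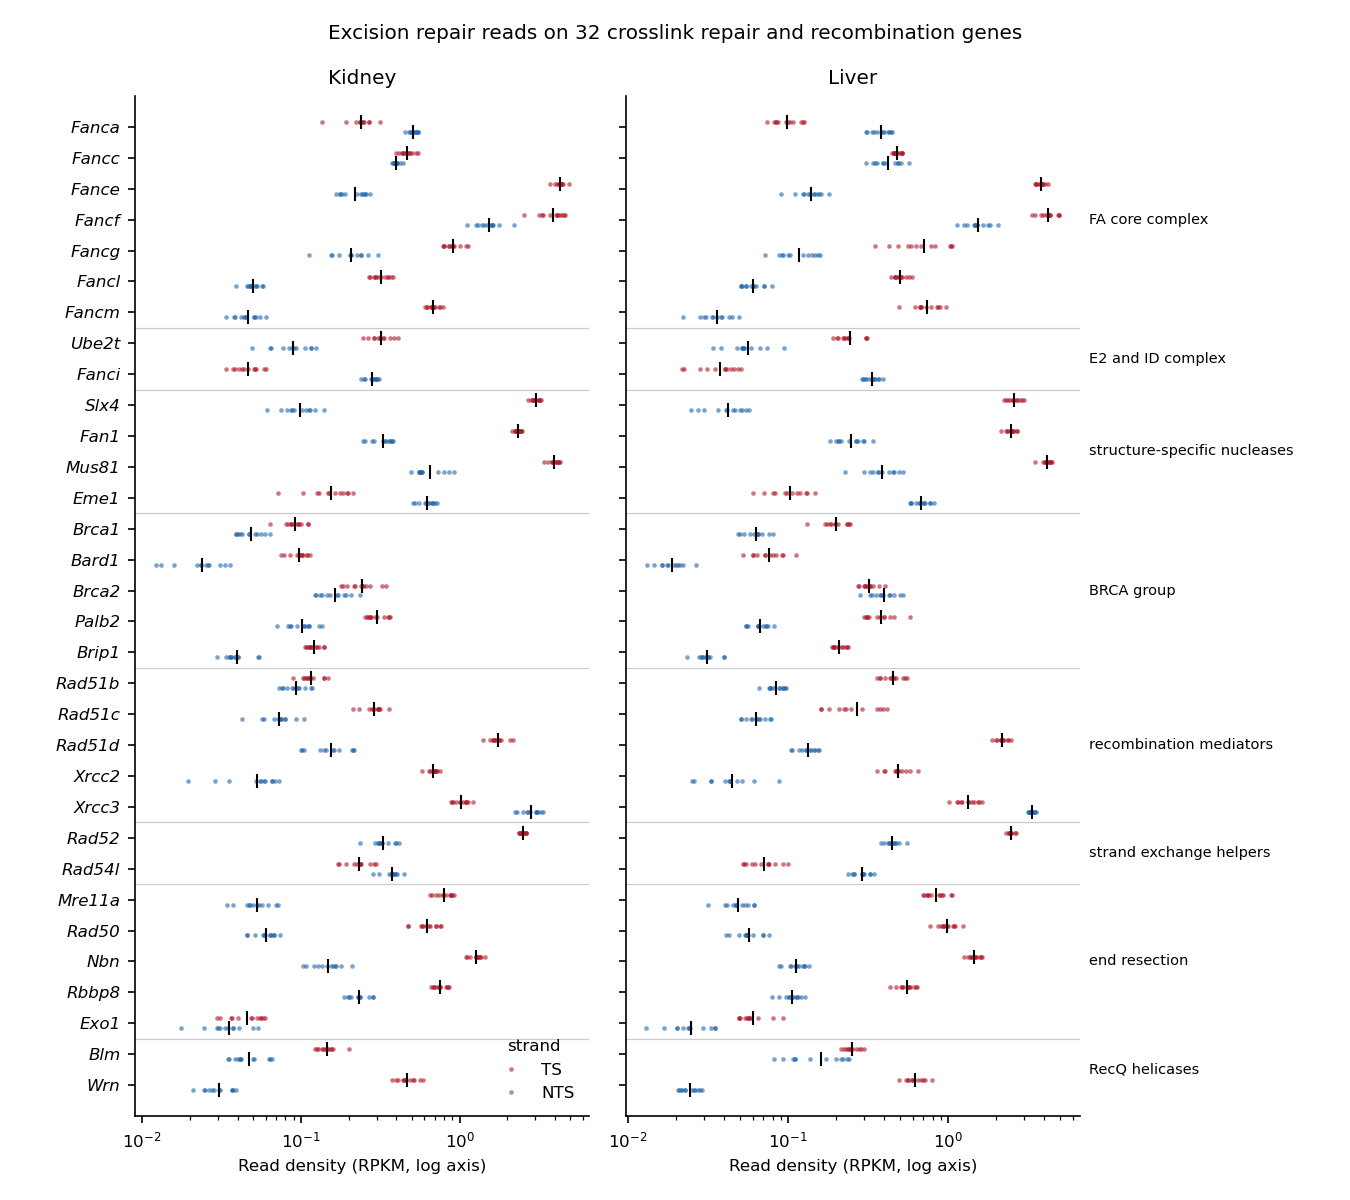
Read density in RPKM (log axis) of each of the 32 genes in 12 kidney libraries (left) and 12 liver libraries (right), TS in red above NTS in blue, with black ticks at the means and lines between groups of genes by role. The TS points lie right of the NTS points for most genes, and left of them for Fanca, Fanci, Eme1, Xrcc3 and Rad54l in both tissues.

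Repair of the TS exceeded that of the NTS in 27 of the 32 genes in kidney and in 26 of 32 in liver, and in the others the NTS was the more repaired strand. All 32 passed the test in each tissue (edgeR's quasi-likelihood test, library as a block, adjusted p at most 0.05 over all genes), where 86.9% of 20243 genes passed in kidney (75.6% with TS higher and 11.4% with TS lower) and 85.1% of 20271 in liver (73.4% and 11.8%). The median log2 TS/NTS of the members was 1.88 in kidney, beside 2.19 for all genes, and 2.43 in liver, beside 2.24. Scaling the strands so that their typical gene is equal moves the median of all genes to -0.07 in kidney and 0.02 in liver, and 14 of the members' kidney ratios and 8 of their liver ratios then change sign. The values here are relative to 1 library size for both strands.

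The largest ratios were those of Slx4, with log2 TS/NTS of 4.93 ± 0.10 in kidney and 5.93 ± 0.10 in liver (SE). Its TS density was 2.71 to 3.24 RPKM in kidney libraries, against 0.0609 to 0.140 RPKM on the NTS, and 2.23 to 3.0 RPKM in liver libraries, against 0.0246 to 0.0567 RPKM. Fance followed with 4.26 ± 0.08 in kidney and 4.75 ± 0.08 in liver, then, in the order of the kidney values, Wrn, a RecQ helicase gene, with 3.93 and 4.68, Mre11a, the nuclease of the MRN complex, with 3.90 and 4.10, and Fancm with 3.86 and 4.39. In liver Fancm stood above Mre11a, and Rad50, with 3.35 in kidney, was level with Mre11a. In Slx4, Fance, Wrn, Mre11a and Fancm TS density exceeded NTS density in all 12 libraries of each tissue. The end resection genes as a group had TS above NTS in 5 of 5 in both tissues, from 0.36 for Exo1 in kidney to 4.10 for both Rad50 and Mre11a in liver.

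In 5 genes the NTS was the more repaired strand in both tissues, and TS density exceeded NTS density in 0 of 12 libraries of either. Fanci had a log2 TS/NTS of -2.60 ± 0.07 in kidney and -3.18 ± 0.09 in liver. Eme1 had -2.03 ± 0.10 and -2.69 ± 0.10, and Fanca, which binds FANCG in the core complex, -1.11 ± 0.07 and -1.94 ± 0.09. Xrcc3, a recombination mediator, had -1.47 ± 0.08 and -1.33 ± 0.07, and Rad54l, a DNA translocase of recombination, -0.67 ± 0.08 and -2.02 ± 0.11. Xrcc3 also had the densest NTS repair of the list, 2.84 ± 0.364 RPKM in kidney and 3.32 ± 0.130 RPKM in liver. In liver Brca2 joined them at -0.30 ± 0.08, with TS above NTS in 1 of 12 libraries, while in kidney it had 0.57 ± 0.07 and 12 of 12.

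All 6 of these genes run towards a gene on the other strand. Only in shared bases is the NTS of the member also the template within that gene's entry. The entries of 5 of them overlap the end of a converging neighbour: Fanci overlaps Polg by 882 bases, Eme1 overlaps Lrrc59 by 215, Fanca overlaps Zfp276 by 2308, Xrcc3 overlaps Klc1 by 4653 and Rad54l overlaps Lrrc41 by 155, while Brca2 ends 1496 bases from N4bp2l1. The overlap is 1.52% of the span of Fanci, 2.46% of that of Eme1, 4.59% of that of Fanca, 43.5% of that of Xrcc3 and 0.58% of that of Rad54l. Of the 11 members with a converging neighbour that overlaps or lies within 3000 bases of their end, 5 in kidney and 6 in liver had more NTS than TS repair, against 0 of the 21 others in either tissue. The 21 others include Rad51c and Fancf, of which entries on the opposite strand cover 100% and 15.0%. Of the 7 members whose entries overlap a converging neighbour, 5 had more NTS than TS repair in each tissue. Fancl, which overlaps Vrk2 by 482 bases, had a log2 TS/NTS of 2.69 in kidney and 3.06 in liver. The grouping by converging neighbour was chosen after the ratios had been seen. Among all entries with a symbol and at least 100 reads, NTS reads outnumbered TS reads in 20.9% of 4122 with such a neighbour and 14.3% of 15878 without one in kidney, and in 23.7% of 4067 and 14.2% of 15362 in liver.

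The overlap itself could hold part of these NTS reads. At the neighbour's own TS density, the shared bases would carry 55.3% of the NTS reads of Xrcc3 in kidney and 46.0% in liver, 32% and 40.2% of those of Fanca, 23.6% and 18.7% of those of Fanci, 15.6% and 12.9% of those of Eme1, and 4.87% and 5.69% of those of Rad54l. For Fancc, a core complex gene that overlaps 2010111I01Rik by 21388 bases, they would carry 109% and 106%, which is more than were counted. These shares assume that a neighbour's repair is even along its span, which was not tested. Fancc had near equal strands, 0.467 ± 0.0456 RPKM on the TS against 0.398 ± 0.0186 RPKM on the NTS in kidney, and 0.482 ± 0.0261 against 0.423 ± 0.0806 RPKM in liver. Reads within a gene that lie past the end of a neighbour's entry cannot be seen in these tables, so whether repair behind transcription that runs on past a neighbour's end takes part was not tested. The authors' downsampled kidney tables list 23 of the members and none of the 9 that overlap an entry on the opposite strand. All 23 had TS above NTS there, as they had in the full counts of the same kidney libraries. This is therefore no separate check.

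**Figure D2:**
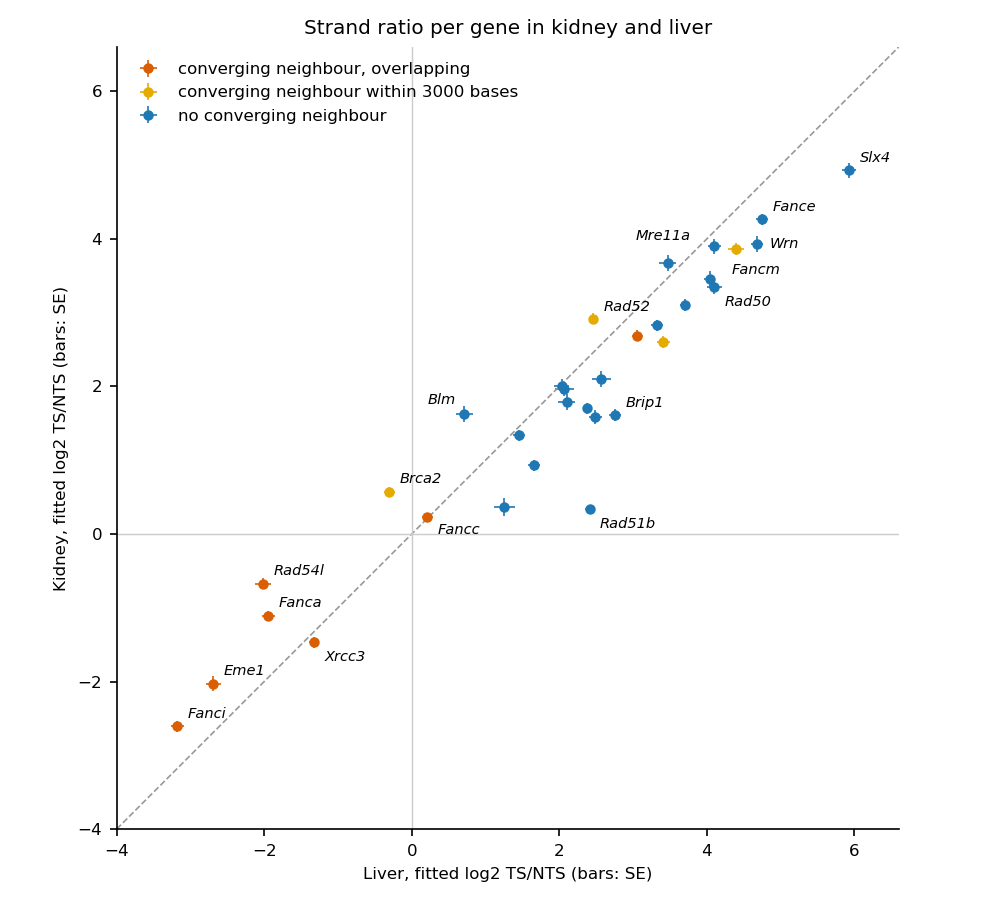
Fitted log2 TS/NTS ratio of each gene in liver (x axis) and kidney (y axis) with SE bars, coloured by whether a gene on the opposite strand converges on its end; the dashed line marks equal ratios. The genes with NTS above TS in both tissues all overlap a converging neighbour, Rad51b lies farthest below the line and Rad54l farthest above it.

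Kidney and liver differed in TS repair for most of the list. Of the 32 genes, 28 passed the test of kidney against liver (adjusted p at most 0.05, edgeR, mean over the 6 times), 10 with kidney higher and 18 with kidney lower, where 73.9% of 19702 genes passed, 42.2% higher and 31.7% lower. The median log2 difference of the members was -0.13, beside 0.07 for all genes. These fits scale each strand by TMM. With the library totals as the only scaling, which was added once results were known, the median of all genes becomes 0.12 and 25 members pass (75.2% of all genes), 11 higher and 14 lower.

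Rad51b, a recombination mediator gene that spans 517.4 kb of chromosome 12 (chr12:79297282-79814690 in mm10, plus strand), had the largest difference. Its TS density in kidney had a lowest, median and highest value of 0.0898, 0.112 and 0.148 RPKM, against 0.362, 0.446 and 0.553 RPKM in liver. The tissues did not overlap, and kidney was lower at 6 of 6 times, with a log2 difference of -2.0 ± 0.07 (SE, adjusted p = 1.32e-14). On the NTS the same gene averaged 0.0927 ± 0.0150 RPKM in kidney and 0.0843 ± 0.00958 RPKM in liver, a fitted difference of -0.17 that becomes 0.13 with library totals as the only scaling.

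Rad54l, chr4:116096955-116123690 on the minus strand, differed the other way. Its TS density was 0.172, 0.234 and 0.299 RPKM in kidney (lowest, median, highest), against 0.0521, 0.0711 and 0.0992 RPKM in liver, with no overlap and a log2 difference of 1.66 ± 0.12 (adjusted p = 3.37e-10). Fanca was also higher in kidney, 0.136 to 0.314 RPKM against 0.0740 to 0.126 RPKM (log2 1.22 ± 0.09). Brca1 was lower in kidney, 0.0642 to 0.112 RPKM against 0.131 to 0.244 RPKM (log2 -1.16 ± 0.07), without overlap.

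The other genes whose TS libraries did not overlap between tissues were Brip1 (log2 -0.84), Blm, a RecQ helicase gene (-0.82), Rad50, of the MRN complex (-0.71), and Fancl (-0.70), all lower in kidney, and Rbbp8, which encodes the resection factor CtIP (0.40), higher in kidney. That makes 9 genes without overlap among the 28. The share of all genes without overlap was not counted on either strand, so whether 9 is many cannot be said. By role, 4 of the 5 BRCA group genes, 4 of the 5 resection genes and both RecQ genes were lower in kidney. With library totals as the only scaling Fancc, Fan1, Mus81 and Mre11a no longer passed, which leaves 3 of the 5 resection genes. The 4 genes that did not pass were Fancf (-0.18, adjusted p = 0.0692), Fanci (0.27, 0.0596), Rad51c (0.11, 0.226) and Rad52 (-0.03, 0.331). Fancc passed with a difference of only -0.10, and the call was lost without any 1 of 8 libraries, which were replicate 2 of kidney ZT0, ZT12, ZT16 and ZT20, replicate 1 of kidney ZT4, ZT8 and ZT16, and replicate 2 of liver ZT8 (adjusted p up to 0.0881). Fance, at 0.12, lost its call without replicate 2 of liver ZT12 or replicate 1 of liver ZT4 (adjusted p up to 0.0616). With other size factors (RLE) and with DESeq2, Fance did not pass, while Fancf and Rad52 did. In both settings 9 members were higher and 20 lower in kidney, and the median of all genes was 0.01. Over all genes, 7346 were higher and 7140 lower with RLE, and 7076 and 7038 with DESeq2.

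On the NTS, 19 of the 32 genes differed between kidney and liver (66.1% of 19124 genes, 33.9% higher and 32.2% lower), 7 higher and 12 lower in kidney. The split depends on the scaling: with library totals alone the median of all genes is 0.32 in place of 0.02, and 16 members are higher and 7 lower among 23 called (71.0% of all genes). Blm had the largest NTS difference, with 0.0349, 0.0416 and 0.0655 RPKM in kidney (lowest, median, highest) against 0.0821, 0.155 and 0.241 RPKM in liver (log2 -1.99 ± 0.09). Brca2 had 0.123, 0.161 and 0.236 RPKM in kidney against 0.282, 0.387 and 0.526 RPKM in liver (-1.57 ± 0.10), and neither gene overlapped between tissues. The TS of N4bp2l1, the converging neighbour of Brca2, was lower in kidney too, at 1.63 ± 0.242 RPKM against 2.88 ± 0.260 RPKM (log2 -0.88), and the part of that gene in the NTS reads of Brca2 was not tested. Slx4 (0.92 ± 0.13) and Rbbp8 (0.84 ± 0.06) were higher in kidney, without overlap. Ube2t (0.41), Palb2 (0.30), Rad50 (-0.21) and Rad51b (-0.17) passed but lost the call without any 1 of 7, 6, 3 and 1 libraries, with adjusted p up to 0.139, 0.0844, 0.126 and 0.0606. For Rad50 these were replicate 2 of liver ZT12, ZT16 and ZT20, and for Rad51b replicate 1 of liver ZT16. For Ube2t they were replicate 2 of ZT0, ZT4 and ZT16 in kidney, replicate 2 of ZT0, ZT16 and ZT20 in liver and replicate 1 of liver ZT4. For Palb2 they were replicate 1 of kidney ZT4 and ZT20, and replicate 2 of kidney ZT16 and of liver ZT0, ZT4 and ZT8.

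The TS/NTS ratio itself differed between the tissues in 24 of the 32 genes (56.8% of 20601 genes, 21.7% higher and 35.1% lower in kidney), 7 higher and 17 lower in kidney, with a median log2 difference of -0.42, beside -0.13 for all genes. Rad51b led with -2.08 ± 0.08: its log2 TS/NTS was 0.33 in kidney and 2.41 in liver. Brip1 (-1.14 ± 0.12), Slx4 (-1.01 ± 0.15) and Palb2 (-0.90 ± 0.13) were also lower in kidney. Rad54l (1.34 ± 0.14), Blm (0.91 ± 0.17), Brca2 (0.87 ± 0.11) and Fanca (0.84 ± 0.11) were higher in kidney. Blm and Brca2 were lower in kidney on both strands, and their NTS differed by more than their TS.

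**Figure D3:**
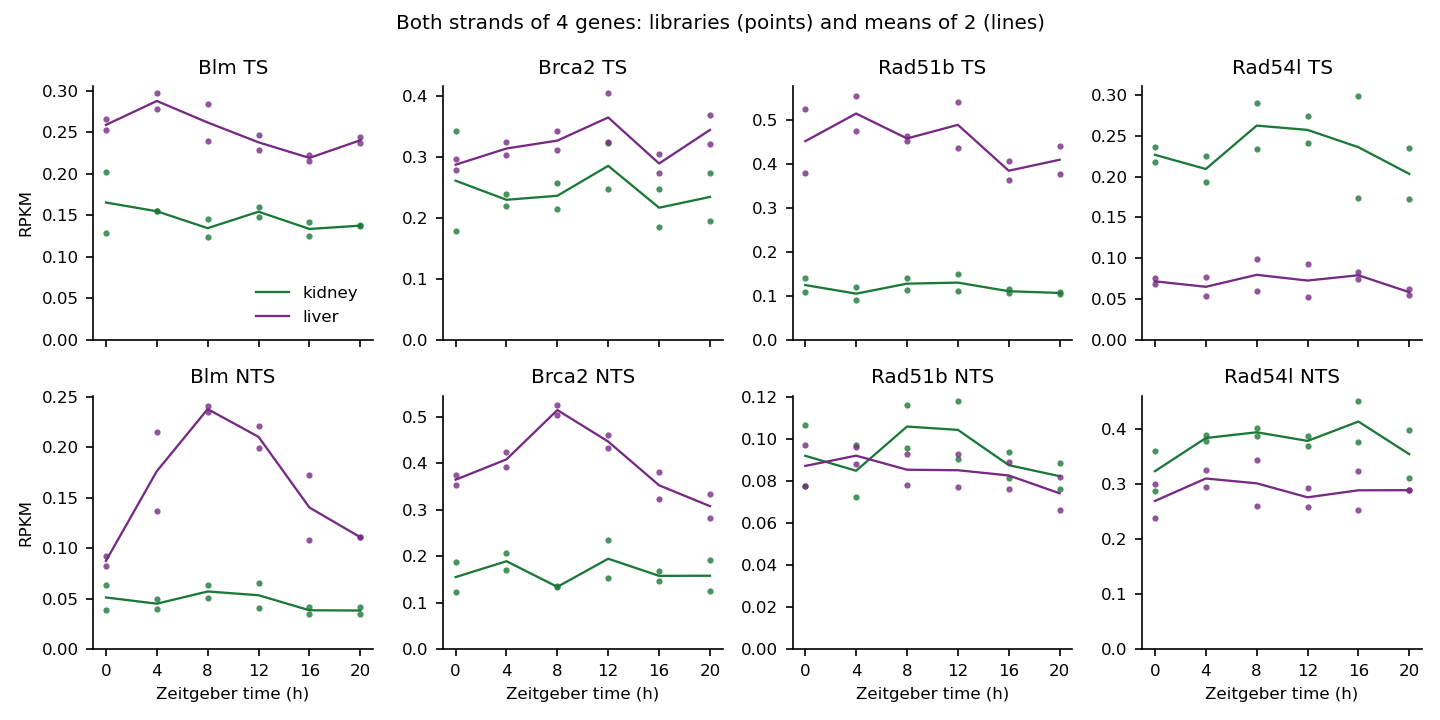
RPKM of Blm, Brca2, Rad51b and Rad54l by zeitgeber time on the TS (top) and the NTS (bottom), kidney in green and liver in purple, with a point for each library and lines through the means of 2. The mean lines of kidney lie below those of liver on both strands of Blm and Brca2 and on the TS of Rad51b, and Blm NTS in liver is highest at ZT8.

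By time of day, TS repair of 3 of the 32 genes followed a 24 h rhythm in kidney and that of 12 did so in liver (edgeR's quasi-likelihood F test of a 24 h cosine and sine, adjusted p at most 0.05). Over all genes, 15.0% of 19277 passed in kidney and 16.6% of 18655 in liver. This fit leaves out the replicate number, and with that number as a block more kidney members passed, as given below. The 12 liver genes are Rad51c, Fancg, Palb2, Fancm, Mre11a, Brca1, Wrn, Rad50, Fancl, Blm, Slx4 and Rad51d. Their fitted log2 amplitudes ran from 0.14 to 0.62, and the median of all 32 was 0.16, beside 0.14 for all genes. In 10 of the 12 the fitted peak lay between ZT16 and ZT24, in the later dark phase. Brca1 (ZT12.3) and Blm (ZT3.6) were the exceptions. That window held the peaks of 1802 of the 3098 called genes in liver (9.66% of all genes tested). In kidney it held those of 2017 of the 2886 called genes (10.5% of all genes tested). Without replicate 1 of liver ZT20, 7 members and 8.54% of all genes passed, and a test of any difference among the 6 times called 3 members and 2.94% of genes.

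Rad51c, a recombination mediator gene of 27.3 kb, had the largest amplitude among the called liver genes. In kidney its libraries ran from 0.214 to 0.362 RPKM on the TS, with an amplitude of 0.17 (adjusted p = 0.207). Its TS density in the 2 liver libraries of each time was 0.246 and 0.289 RPKM at ZT0, 0.181 and 0.207 at ZT4, 0.16 and 0.224 at ZT8, 0.16 and 0.229 at ZT12, 0.391 and 0.376 at ZT16, and 0.357 and 0.417 at ZT20. All 4 liver libraries of ZT16 and ZT20 lay above the 8 of the other times. The fitted log2 amplitude in liver was 0.62 ± 0.09 (SE), a 2.36-fold difference of peak over trough, with a peak at ZT18.9 (adjusted p = 0.00192). An entry named Mir8115 covers the whole of Rad51c on the opposite strand.

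Fancg, a core complex gene of 8.0 kb, was nearly as rhythmic in liver. Its kidney amplitude was 0.15 (adjusted p = 0.313). In liver it had 1.03 and 0.681 RPKM at ZT0, 0.561 and 0.630 at ZT4, 0.583 and 0.489 at ZT8, 0.350 and 0.430 at ZT12, 0.823 and 1.04 at ZT16, and 1.05 and 0.787 at ZT20. The lowest pair was that of ZT12, and the pairs of ZT0 and ZT20 were the most scattered. The liver amplitude was 0.57 ± 0.12, 2.21-fold peak over trough, with a peak at ZT20.6 (adjusted p = 0.0163, and 0.056 without replicate 1 of ZT20).

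Mre11a passed in both tissues, as did its partner Rad50, and no other member did in the fits without the replicate block. With the block Fancl, Rad51d and Wrn passed in kidney too, and they are among the genes called in liver without it. Mre11a in kidney had 0.922 and 0.785 RPKM at ZT0, 0.739 and 0.816 at ZT4, 0.651 and 0.674 at ZT8, 0.789 and 0.706 at ZT12, 0.869 and 0.885 at ZT16, and 0.880 and 0.901 at ZT20. In liver it had 0.924 and 0.919 RPKM at ZT0, 0.788 and 0.746 at ZT4, 0.739 and 0.711 at ZT8, 0.70 and 0.746 at ZT12, 0.876 and 0.885 at ZT16, and 1.06 and 1.04 at ZT20. The mean of ZT8 was the lowest in kidney and those of ZT8 and ZT12 were the lowest in liver. The amplitude was 0.23 ± 0.04 with a peak at ZT20.0 in kidney (adjusted p = 0.00571) and 0.29 ± 0.03 with a peak at ZT20.5 in liver (adjusted p = 0.000335), and both calls held with each library left out.

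Rad50 had amplitudes of 0.25 ± 0.07 in kidney (peak ZT19.3, adjusted p = 0.0437) and 0.22 ± 0.05 in liver (peak ZT21.4, adjusted p = 0.0165). The kidney call was lost without any 1 of 7 libraries, namely replicate 1 of ZT8, ZT16 or ZT20 or replicate 2 of ZT4, ZT8, ZT12 or ZT16 (adjusted p up to 0.208), and the liver call without replicate 1 of ZT20 or replicate 2 of ZT8 (up to 0.0577). Its kidney libraries of ZT8, 0.473 RPKM each, were the lowest of the 12. Rbbp8 was the third kidney gene, with an amplitude of 0.18 ± 0.03 and a peak at ZT16.9 (adjusted p = 0.00554). Its kidney libraries of ZT16, with 0.835 and 0.848 RPKM, lay above those of ZT4, with 0.658 and 0.686 RPKM, and the call held with each library left out. The 3 kidney calls are 3 of the 5 resection genes, of which Nbn and Exo1 did not pass. They are 9.38% of the members, beside 15.0% of all genes, and the group was not tested as a set.

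With the replicate number as a block, which is supported in kidney by the way same-numbered libraries deviate together, 7 members passed in kidney (25.4% of all genes): the same 3 with Fancl, Nbn, Rad51d and Wrn. DESeq2 called 5 (20.3%), adding Fancl and Wrn. With the trend over gene length taken out, only Mre11a passed (10.2% of all genes), and none passed in a test of any difference among the 6 times (1.02%), where 5 members had an unadjusted p under 0.05. Without replicate 1 or replicate 2 of kidney ZT0, 6 and 7 members passed (17.9% and 20.1%).

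Of the further liver genes, Palb2 had an amplitude of 0.32 ± 0.08 (peak ZT21.3), with 0.579 and 0.431 RPKM at ZT0 against 0.297 and 0.313 at ZT12. Fancm had 0.30 ± 0.06 (ZT19.7), with 0.866 and 0.970 RPKM at ZT20 against 0.492 and 0.667 at ZT12. Wrn had 0.26 ± 0.04 (ZT19.6, adjusted p = 0.00165), Fancl 0.18 ± 0.03 (ZT19.2), Slx4 0.15 ± 0.04 (ZT19.3) and Rad51d 0.14 ± 0.04 (ZT20.0). The calls of Palb2, Slx4 and Rad51d were each lost without any 1 of 7 liver libraries, with adjusted p up to 0.101, 0.109 and 0.143. For Palb2 these were both libraries of ZT4, ZT8 and ZT12 and replicate 2 of ZT16, for Slx4 both of ZT16 and ZT20 and replicate 2 of ZT4, ZT8 and ZT12, and for Rad51d both of ZT4 and ZT20, replicate 1 of ZT16 and replicate 2 of ZT8 and ZT12. Fancm lost its call without replicate 2 of ZT20 (0.0551).

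Brca1 peaked at a different time in liver, ZT12.3. It had 0.131 and 0.171 RPKM at ZT0, 0.185 and 0.182 at ZT4, 0.196 and 0.240 at ZT8, 0.244 and 0.233 at ZT12, 0.205 and 0.234 at ZT16, and 0.196 and 0.176 at ZT20. Both libraries of ZT12 lay above both of ZT0, and the amplitude was 0.29 ± 0.06 (adjusted p = 0.0128, and no more than 0.0416 with any library left out). Blm had the earliest peak, ZT3.6, with a small amplitude of 0.16 ± 0.04. Its adjusted p of 0.047 rose above the threshold without any 1 of 9 libraries, which were all except both of ZT0 and replicate 2 of ZT8 (up to 0.155).

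Although 3 members passed in kidney and 12 in liver without the replicate block, the rhythms were not shown to differ between the tissues. In the test of that difference 0 of the 32 passed (0.939% of 19702 genes), and 6 had an unadjusted p under 0.05. The lowest adjusted p-values were those of Brca1 (0.0742), Rad51c (0.101) and Ube2t (0.108), and DESeq2 called these 3 (3.58% of all genes). The replicate block called 2 members (2.27%), Brca1 and Rad51c. Leaving out replicate 1 of liver ZT0 gave 2 calls, Ube2t and Rad51c, and leaving out replicate 2 of liver ZT8 gave 1, Rad51c.

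**Figure D4:**
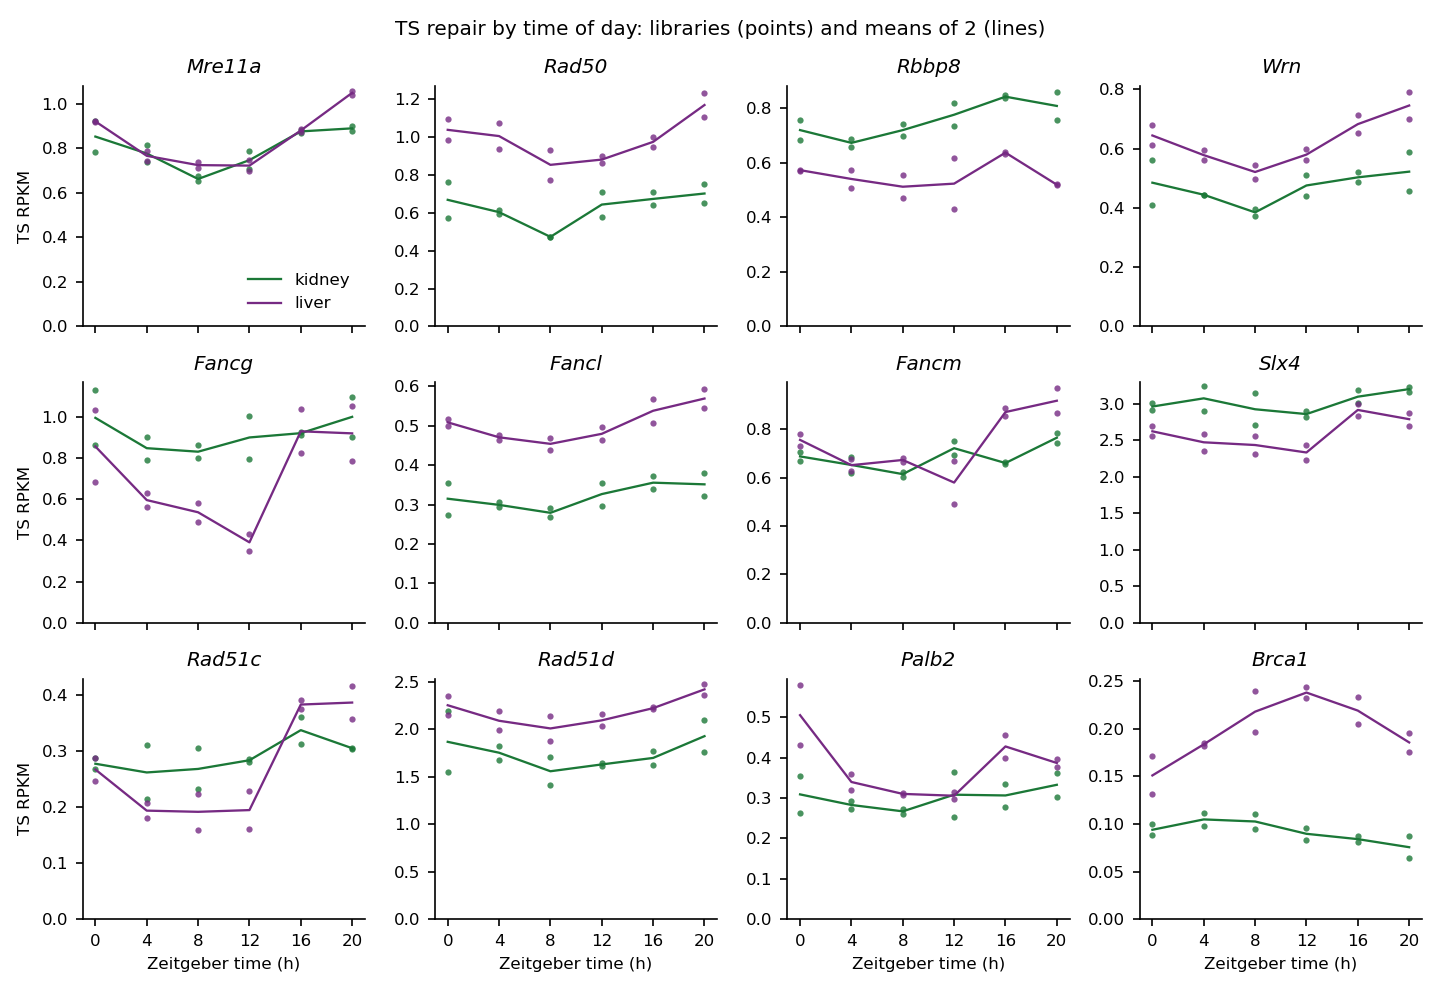
TS density in RPKM of 12 genes by zeitgeber time, kidney in green and liver in purple, with a point for each library and lines through the means of 2. Rad51c and Fancg in liver are lower from ZT4 to ZT12 than at ZT16 and ZT20, and Brca1 in liver is highest at ZT12.

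**Figure D5:**
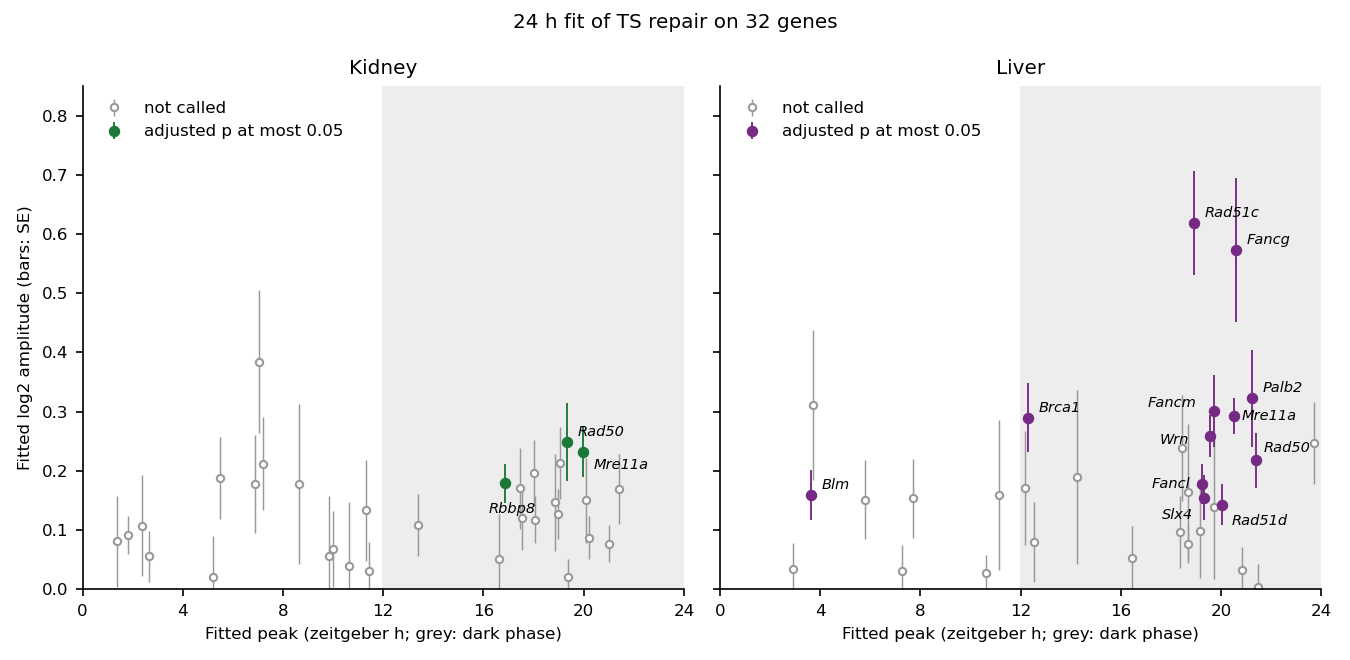
Fitted log2 amplitude (y axis, bars are SE) and peak time (x axis, zeitgeber hours) of TS repair for the 32 genes in kidney (left) and liver (right), with the dark phase in grey and called genes filled. The 3 kidney calls and 10 of the 12 liver calls peak between 16 and 24 h.

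Of 43 measured other genes of crosslink repair and recombination, 10 passed for TS rhythm in kidney and 11 in liver. In kidney these 10 all peaked between ZT16 and ZT24, among them Trp53bp1 (amplitude 0.22, peak ZT19.5), which guards broken ends, Topbp1 (0.21, ZT19.7), an activator of ATR, Mdc1 (0.21, ZT19.8), a scaffold at breaks, and the checkpoint kinase gene Atr (0.20, ZT18.0). In liver 10 of the 11 peaked in that window, among them Atm (0.36, ZT20.1), the kinase of double-strand breaks, Topbp1 (0.25, ZT20.9), Mdc1 (0.21, ZT21.8) and Atr (0.19, ZT19.1). Of 30 proliferation genes, 2 passed in kidney, Ccnb2 (0.38, ZT18.4) and Tk1 (0.33, ZT15.7), and 5 in liver, led by Ccne2 (0.54, ZT16.1), Tk1 (0.53, ZT13.9), Rrm2 (0.47, ZT9.4) and Birc5 (0.44, ZT15.1), cyclins and genes of nucleotide supply and mitosis. As shares, 9.38% of the members passed in kidney and 37.5% in liver, beside 23.3% and 25.6% of the other crosslink and recombination genes and 6.67% and 16.7% of the proliferation genes and 15.0% and 16.6% of all genes, and the lists were not tested against each other.

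The sequences before the start of the 4 genes with the largest amplitudes among the 12 called in liver, Rad51c, Fancg, Palb2 and Fancm, and of Mre11a, which was called in both tissues, are shown because all 5 passed in liver with fitted peaks between ZT16 and ZT24. They are the 250 bases before the RefSeq start in GRCm38.p6, read 5′ to 3′ on the gene's strand: chr11:87404955-87405204 (minus) for Rad51c, chr4:43010302-43010551 (minus) for Fancg, chr7:122132947-122133196 (minus) for Palb2, chr12:65075353-65075602 (plus) for Fancm and chr9:14784404-14784653 (plus) for Mre11a. Capitals mark matches, on either strand, to 5 motifs that were searched: the E-box CACGTG, the D-box TTANGTAA, the core AGGTCA of the ROR element, the E2F site GGCGGGAA and the NF-Y box CCAAT.
Rad51c: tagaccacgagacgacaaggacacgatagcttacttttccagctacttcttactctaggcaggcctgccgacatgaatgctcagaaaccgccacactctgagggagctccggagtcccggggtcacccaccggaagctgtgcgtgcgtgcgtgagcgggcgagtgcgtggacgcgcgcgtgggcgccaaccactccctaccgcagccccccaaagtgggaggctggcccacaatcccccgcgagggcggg
Fancg: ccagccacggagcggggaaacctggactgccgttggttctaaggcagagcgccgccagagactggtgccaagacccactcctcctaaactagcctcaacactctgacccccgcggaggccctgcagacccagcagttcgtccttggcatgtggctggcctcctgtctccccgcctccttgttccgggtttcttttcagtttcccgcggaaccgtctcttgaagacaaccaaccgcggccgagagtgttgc
Palb2: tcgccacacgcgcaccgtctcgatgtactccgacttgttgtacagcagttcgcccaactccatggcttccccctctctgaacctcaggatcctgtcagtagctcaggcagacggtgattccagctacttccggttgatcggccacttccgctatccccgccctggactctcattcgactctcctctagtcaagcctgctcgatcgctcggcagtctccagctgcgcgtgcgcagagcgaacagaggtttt
Fancm: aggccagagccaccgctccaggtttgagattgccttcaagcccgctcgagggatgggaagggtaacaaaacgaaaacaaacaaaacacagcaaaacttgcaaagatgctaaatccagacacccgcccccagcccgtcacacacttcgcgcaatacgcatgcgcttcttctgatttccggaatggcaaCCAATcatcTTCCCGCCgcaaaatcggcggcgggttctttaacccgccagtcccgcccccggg
Mre11a: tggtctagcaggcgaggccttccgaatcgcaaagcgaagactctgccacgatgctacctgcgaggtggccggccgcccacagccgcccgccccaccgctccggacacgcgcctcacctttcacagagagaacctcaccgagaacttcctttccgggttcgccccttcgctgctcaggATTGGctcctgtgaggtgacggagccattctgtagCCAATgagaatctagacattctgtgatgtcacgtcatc
The windows of Rad51c, Fancg and Palb2 held none of these letters. That of Fancm held 1 E2F match, and 1 CCAAT match just before it. That of Mre11a held CCAAT on each strand. Of the 25 members with such a window, 2 held the E-box (6.02% of all 32817 windows), 0 the D-box (2.06%), 2 the ROR core (14.0%), 1 the E2F site (1.85%) and 14 CCAAT (33.8%). A match is a description of the letters and shows neither binding nor a cause.

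On the NTS few members were rhythmic. In kidney 2 of 32 passed (2.12% of 18932 genes), Xrcc3 and Rad52. Xrcc3 had 3.08 and 3.03 RPKM at ZT0, 2.78 and 2.72 at ZT4, 2.25 and 2.29 at ZT8, 2.67 and 2.51 at ZT12, 3.26 and 3.11 at ZT16, and 3.02 and 3.37 at ZT20, with the pair of ZT8 below all others (amplitude 0.39 ± 0.07, peak ZT20.0, adjusted p = 0.00608). On its TS the amplitude was 0.02 (adjusted p = 0.975). The TS of Klc1, which overlaps it, had an amplitude of 0.09 with a peak at ZT21.0 (adjusted p = 0.0934). Rad52 had an NTS amplitude of 0.38 ± 0.07 (peak ZT18.4, adjusted p = 0.0171), and lost the call without replicate 1 or 2 of ZT8, replicate 1 of ZT16 or replicate 2 of ZT20 (up to 0.107). Its converging neighbour Wnk1 had a TS amplitude of 0.08 (peak ZT16.5, adjusted p = 0.166). A test of any difference among the 6 times called 0 members (0.0898% of genes), with 3 at an unadjusted p under 0.05, and the downsampled tables called 1 (1.57%). With the replicate block Fancf passed as well (7.78% of genes).

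In liver 3 of 32 passed on the NTS (3.76% of 18061 genes), Blm, Fancc and Brca2. All 3 peaked between ZT4 and ZT12, as did 289 of the 679 called genes (1.6% of all genes tested). Blm had 0.0821 and 0.0925 RPKM at ZT0, 0.137 and 0.215 at ZT4, 0.241 and 0.234 at ZT8, 0.221 and 0.199 at ZT12, 0.173 and 0.107 at ZT16, and 0.111 and 0.110 at ZT20. The pair of ZT0 was the lowest and that of ZT8 the highest, a 2.30-fold fitted difference of peak over trough (amplitude 0.60 ± 0.09, peak ZT9.8, adjusted p = 0.000347), and the call held with each library left out. No converging neighbour lies within 3000 bases of Blm. Fancc had an amplitude of 0.28 ± 0.07 (peak ZT10.6, adjusted p = 0.0354) and Brca2 one of 0.25 ± 0.06 (peak ZT8.7, adjusted p = 0.0386). On the TS of their neighbours, 2010111I01Rik had 0.14 (peak ZT9.5, adjusted p = 0.0108) and N4bp2l1 0.12 (peak ZT8.5, adjusted p = 0.0828). The Fancc call was lost without any 1 of 8 libraries, which were both of ZT8 and ZT12, replicate 1 of ZT16 and replicate 2 of ZT0, ZT4 and ZT20 (up to 0.17). That of Brca2 was lost without any 1 of 9, which were both of ZT8, ZT12, ZT16 and ZT20 and replicate 2 of ZT4 (up to 0.163). A test of any difference among the 6 times called 1 member (1.49%).

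The TS/NTS ratio followed a 24 h rhythm in 5 members in liver (5.63% of 20271 genes): Fancg (amplitude 0.68 ± 0.17, peak ZT21.6), Blm (0.68 ± 0.09, ZT22.4), Rad51c (0.66 ± 0.12, ZT18.9), Fancc (0.38 ± 0.07, ZT21.4) and Fan1 (0.33 ± 0.08, ZT21.1). With 1 library size for both strands, a change in a library's TS share enters the ratio of every gene. The TS share of reads on genes was 87.5% and 86.1% in the liver libraries of ZT8, against 89.0% and 87.7% at ZT20. In kidney it was 85.2% and 83.6% at ZT8, against 88.0% and 86.5% at ZT20. The part of this share in the ratio rhythms was not tested. In Rad51c and Fancg the TS was rhythmic and the NTS did not pass, in Fancc the NTS was rhythmic and the TS did not pass, and in Blm both passed with peaks at ZT3.6 on the TS and ZT9.8 on the NTS. Leaving out replicate 2 of ZT0, replicate 1 of ZT8 or replicate 1 of ZT20 left 3 calls each. Fancg lost its call without these 3 or replicate 1 of ZT12 (adjusted p up to 0.0972), and Fan1 without 7 libraries, both of ZT8 and ZT20, replicate 2 of ZT0 and ZT12, and replicate 1 of ZT16 (up to 0.16). In kidney 0 members passed (1.31% of 20243 genes), with 11 at an unadjusted p under 0.05. Without replicate 2 of kidney ZT0, 3 passed (13.2% of all genes): Rad51d, Mre11a and Wrn.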

How the data were processed

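The deposited counts are whole reads per gene, strand and time, and the deposited RPKM values are, per the file headers and their ratio to the counts, reads per kilobase of the gene's span, scaled to the library's total. The genome build is mm10, per the submitters' processing notes, and no aligner or counter is named (not given in the sources used here). Of 25239 entries, 882 without a symbol (2.76% of TS and 2.89% of NTS reads) were left out of the tests, and 4 tables of intergenic and overlapping regions were not used. Of 2 entries named Rad51b, the one with more TS reads was taken. Library totals were recovered from counts and RPKM, and start positions, counted from 0 by the authors, are printed counted from 1. No 2 libraries held identical counts.

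Tests on counts over all genes were those of edgeR 4.0.16, with limma 3.58.1 under R 4.3.3, using glmQLFTest on glmQLFit models. Scaling was by TMM, low counts were removed by filterByExpr, and p-values were adjusted by Benjamini-Hochberg and called at 0.05. Rhythm was tested as a joint cosine and sine term with a period of 24 h (amplitude on the log2 scale, so peak over trough is 2 to the power of 2 amplitudes, with an SE from the F statistic). Strands were compared in 2 columns a library with the library as a block and 1 library size for both. Kidney against liver was the mean over the 6 times, and differences of rhythm or strand ratio were interactions. Alternatives were other size factors, no filter, DESeq2 1.42.0, a replicate block, removal of the length trend, any difference among times, the downsampled tables, strand-centred scaling, each library left out and, added after seeing the data, library totals without TMM.

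Same-numbered kidney libraries deviated together (correlations of 0.134 to 0.383 over all 15 pairs of times), so the replicate numbers may mark pairs there. The labels do not say what a shared number stands for. The main rhythm fits on each strand and the fits of kidney against liver leave this out, and the replicate block takes it in. In liver 6 of 15 correlations were above 0.1 (-0.141 to 0.228), and the numbers are not taken as pairs. On simulated counts, an amplitude of 0.5 was found in 79% of 100 changed genes for the kidney TS rhythm and 64% for the liver TS rhythm. False calls numbered 12 among 19158 genes and 9 among 18480. Smaller amplitudes were not simulated, and the median amplitude of the members was 0.12 in kidney and 0.16 in liver. The simulated libraries held no shared deviation by replicate number.

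The members and the lists of related genes, proliferation genes and markers were chosen with earlier results of these data known. All members are named. Of the related and proliferation genes, up to 4 called ones with the largest value are named for the TS rhythm. Gene starts for the sequences are those of RefSeq, GRCm38.p6. Counting intervals cover counting error only, so replicate spread is given in their place.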

Additional observations from a re-analysis of the deposited data

Results flagged for a closer look

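The strand ratio differed between the tissues by the test of the difference itself in 24 genes, given here as log2 TS/NTS in kidney minus that in liver. It was lower in kidney for Rad51b (-2.08), Brip1 (-1.14), Slx4 (-1.01), Palb2 (-0.90), Exo1 (-0.89), Mus81 (-0.81), Rad50 (-0.75), Wrn (-0.75), Brca1 (-0.72), Rbbp8 (-0.68), Nbn (-0.59), Rad51d (-0.59), Fancm (-0.53), Fan1 (-0.50), Fance (-0.48), Fancg (-0.47) and Fancl (-0.37). It was higher in kidney for Rad54l (1.34), Blm (0.91), Brca2 (0.87), Fanca (0.84), Eme1 (0.66), Fanci (0.57) and Rad52 (0.46). The call of Fancg was lost without any 1 of 9 libraries, which were replicate 2 of kidney ZT0, ZT4, ZT8 and ZT12, both of liver ZT0 and ZT20, and replicate 2 of liver ZT16 (adjusted p up to 0.0755).

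The place of Fancd2, whose protein is the one the core complex marks with ubiquitin, carries signal outside the entries with a symbol. The RefSeq gene spans chr6:113531640-113597020 on the plus strand, and an entry without a symbol spans chr6:113531682-113597020. Over 12 libraries each it held 1148 TS reads in kidney and 1493 in liver, beside 640 and 441 NTS reads. Its TS density was 0.0712 ± 0.00995 RPKM in kidney and 0.0893 ± 0.0114 RPKM in liver (SD, n = 12 each), and its NTS density 0.0395 ± 0.00735 and 0.0271 ± 0.00745 RPKM. It was not tested.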

How the results depend on the processing

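The strand scaling moved the most signs. With TMM over the strand columns the members split into 13 with TS higher and 18 with TS lower in kidney and 18 and 11 in liver, and log2 TS/NTS turned negative in kidney for Fancc (-2.03), Rad51b (-1.93), Exo1 (-1.86), Brca2 (-1.69), Brca1 (-1.31), Fancf (-0.91), Palb2 (-0.67), Brip1 (-0.64), Blm (-0.62), Rbbp8 (-0.56), Ube2t (-0.44), Rad51c (-0.29), Bard1 (-0.24) and Fancg (-0.14), and in liver for Fancc (-2.01), Blm (-1.51), Exo1 (-0.95), Fancf (-0.76), Brca1 (-0.56), Bard1 (-0.18), Rad51c (-0.14) and Ube2t (-0.10). With library totals in place of TMM, chosen after seeing the data, the NTS difference of kidney against liver turned positive for Rad51b (0.13), Rad50 (0.0875) and Fancf (0.00955).

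Counts of called members moved by more than 1.5 times in these settings. For the kidney TS rhythm (3) they were 5 with DESeq2, 7 with the replicate block, 1 without the length trend and 0 for any difference among times. For the liver TS rhythm (12) any difference among times gave 3. For the kidney NTS rhythm (2) it gave 0, use of the downsampled tables left 1, and for the liver NTS rhythm (3) it gave 1. For the difference of TS rhythms (0) DESeq2 gave 3 and the replicate block 2. The block moved no other count by over 1.5 times. It gave 30 for kidney against liver on the TS (28) and 21 on the NTS (19). In liver it gave 13 for the TS rhythm and 4 for the NTS rhythm, and the liver numbers are not taken as pairs.

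With each library left out, calls ranged over 2 to 7 for the kidney TS rhythm, 7 to 12 for the liver TS rhythm, 1 to 2 for the kidney NTS rhythm, 1 to 4 for the liver NTS rhythm, 0 to 2 for the difference of TS rhythms, 0 to 3 for the kidney ratio rhythm and 3 to 6 for the liver ratio rhythm. Those of TS against NTS stayed at 32 in both tissues, and those of kidney against liver ranged over 27 to 30 on the TS, 17 to 21 on the NTS and 23 to 24 for the ratio. The liver NTS rhythm fell to 1 call without any 1 of 7 libraries, both of ZT8 and ZT12, replicate 2 of ZT4 and ZT20, and replicate 1 of ZT16. Except where a change in the genes tested or samples fitted is itself the setting, the cause was not tested. Precision is limited by depth where NTS densities are low and by having 2 libraries a time.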
